A study of Mus musculus with 2 samples.

Results

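Of the 10 genes described here 9 were measured, and 8 of those 9 differed by less than 1.5-fold between regulatory T cells lacking Bach2 and wild-type cells. The other, Nfkbib, was 1.64-fold higher in the cells lacking Bach2, where 8.15% of all genes compared were at least 1.5-fold higher and 6.77% at least 1.5-fold lower. The 10 genes are subunits and inhibitors of NF-kappaB, a family of dimeric transcription factors: Nfkb1, Nfkb2, Rel, Rela, Relb, Nfkbia, Nfkbib, Nfkbid, Tnfaip3 and Bcl3. They were taken as every probe that the platform annotation pairs with these symbols, which gave 9 probes for 9 genes among 23978 named probes for 16593 genes. Nfkb1, which encodes the precursor p105 and its product p50, had no probe among them and was not analysed here. Regulatory T cells are CD4 T cells that restrain immune responses, and here they were sorted from mouse spleen as CD4+ CD25+ GITR+ cells. The sample lacking Bach2, a transcriptional repressor of lymphocytes, came from a male aged 7 weeks, and the wild-type (WT) sample came from a male aged 6 weeks, both on the C57BL/6 background per the labels. The labels state neither how many animals gave each sample nor how the Bach2 allele was made. Biotin-labelled RNA from each genotype was read on 1 Illumina BeadChip array, so no value has a replicate error, no test was possible and every difference describes these 2 arrays.

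In resting lymphocytes NF-kappaB dimers are held in the cytoplasm by IkappaB proteins, and signals from the T cell receptor, CD28, TNF-family receptors and Toll-like receptors activate the IkappaB kinase complex, after which IkappaB is degraded and the dimers enter the nucleus. In an alternative branch the kinase NIK leads to processing of the Nfkb2 product p100 and to dimers that contain RelB. The pathway limits itself, because NF-kappaB dimers activate the genes of several of its own subunits and inhibitors. In regulatory T cells c-Rel is known for its role in the induction of Foxp3. Much of this control acts on protein location and stability, which an mRNA array does not measure.

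The target sequence shared by NF-kappaB dimers, the kappaB consensus of 10 bases, was searched on both strands in the promoter windows of the members, from 250 bases before to 50 bases after each annotated start (RefSeq, GRCm38.p6). Of the 9 measured genes 8 had at least 1 window, 13 windows in all. Of these 8 genes 6 held a match, namely Nfkb2, Rel, Nfkbia, Nfkbid, Tnfaip3 and Bcl3, whereas Rela and Nfkbib held none, and Relb had no window in the table. Of all 27025 genes with a window, 5.14% held a match. By window, 8 of the 13 held one, beside 4.51% of all 32851 windows. The windows of 5 members are shown because they contrast genes with a match and Nfkbib, the member with the largest difference between the arrays. Capitals mark matches to the kappaB consensus, some of them overlapping, and in Tnfaip3 the first run of capitals marks the motif TGANTCA.
Nfkb2, chr19:46304487-46304786, plus strand: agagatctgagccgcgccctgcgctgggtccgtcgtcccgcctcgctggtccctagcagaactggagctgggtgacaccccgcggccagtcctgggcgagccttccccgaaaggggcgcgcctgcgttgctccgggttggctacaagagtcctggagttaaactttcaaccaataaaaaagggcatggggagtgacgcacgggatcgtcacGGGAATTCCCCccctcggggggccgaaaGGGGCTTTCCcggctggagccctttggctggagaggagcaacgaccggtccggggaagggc
Rel, chr11:23770920-23771219, minus strand: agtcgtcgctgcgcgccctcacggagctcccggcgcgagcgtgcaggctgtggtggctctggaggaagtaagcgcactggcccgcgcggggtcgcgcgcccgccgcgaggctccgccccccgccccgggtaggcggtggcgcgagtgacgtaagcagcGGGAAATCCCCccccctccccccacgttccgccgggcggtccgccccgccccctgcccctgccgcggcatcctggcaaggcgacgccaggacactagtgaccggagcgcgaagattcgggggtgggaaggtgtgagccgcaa
Nfkbia, chr12:55492598-55492897, minus strand: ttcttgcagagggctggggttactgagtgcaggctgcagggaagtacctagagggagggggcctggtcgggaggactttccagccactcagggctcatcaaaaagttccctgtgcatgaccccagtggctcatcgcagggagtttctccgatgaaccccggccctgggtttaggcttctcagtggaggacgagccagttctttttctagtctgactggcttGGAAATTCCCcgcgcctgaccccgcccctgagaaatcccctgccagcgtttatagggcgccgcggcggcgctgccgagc
Tnfaip3, chr10:19015361-19015660, minus strand: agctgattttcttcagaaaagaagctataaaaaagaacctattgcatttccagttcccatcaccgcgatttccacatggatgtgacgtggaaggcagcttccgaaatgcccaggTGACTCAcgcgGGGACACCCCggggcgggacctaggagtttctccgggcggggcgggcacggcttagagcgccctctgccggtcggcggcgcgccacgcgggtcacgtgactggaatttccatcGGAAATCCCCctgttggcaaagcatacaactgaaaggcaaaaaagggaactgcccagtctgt
Nfkbib, chr7:28766595-28766894, minus strand: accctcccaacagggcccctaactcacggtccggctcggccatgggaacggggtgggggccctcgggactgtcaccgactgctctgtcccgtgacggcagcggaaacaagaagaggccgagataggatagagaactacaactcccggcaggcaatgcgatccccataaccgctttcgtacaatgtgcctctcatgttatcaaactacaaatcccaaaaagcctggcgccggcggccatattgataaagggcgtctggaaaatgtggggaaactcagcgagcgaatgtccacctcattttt
In Nfkb2 the first match began 39 bases before this start, at GGGAATTCCC, and another began 11 bases before it, at GGGGCTTTCC. Rel held GGGAAATCCC, which began 92 bases before the start, and Nfkbia held GGAAATTCCC, the motif on the other strand, 29 bases before it. In Tnfaip3 the matches began 125 and 12 bases before the start. Of the members not printed in full, Nfkbid held GGGACTTCCC, 226 bases before its second annotated start, and Bcl3 held GGGAAGTCCC, 3 bases after its start. The motif TGANTCA, which is wider than the core of the sites bound by AP-1 and Bach proteins because it allows any middle base, was found in 7.81% of all windows. It was present in 1 window each of Nfkb2 and Tnfaip3. The letters were TGACTCA in Tnfaip3, which is such a core, and TGAATCA in Nfkb2, which is not. A match describes letters in a window and is not evidence that a factor binds there.

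**Figure D1:**
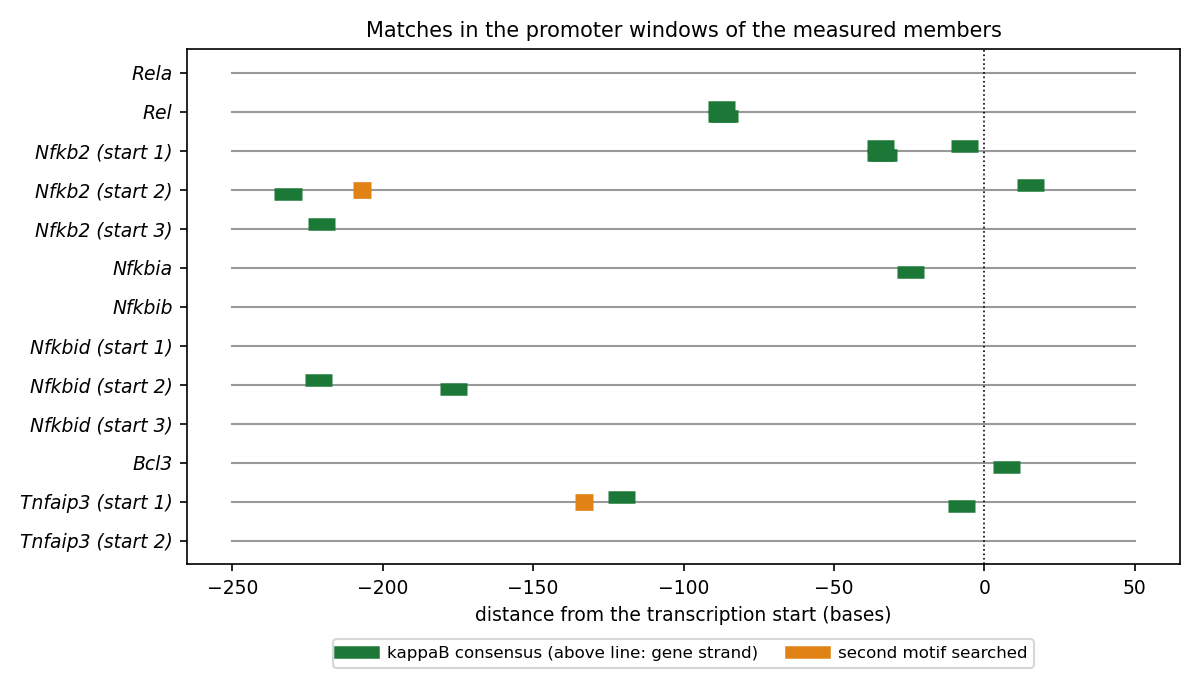
Positions of motif matches in the 13 promoter windows of the 8 measured members with a window, as distance in bases from each annotated transcription start. Green boxes above a line are kappaB matches on the gene's strand and those below it are on the other strand, and orange boxes are the motif TGANTCA. Rela and Nfkbib have no match in their windows.

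Of 25697 probes, 10373 were detected (detection p-value under 0.01) on the Bach2 KO array and 10431 on the WT array, and 7611 named genes were detected on at least 1 array. The defining transcripts of the sort were present on both arrays. Foxp3, the lineage factor, differed by -0.10 on the log2 scale at its brightest probe, Il2ra (CD25) by -0.02, Tnfrsf18 (GITR) by 0.19 and Cd4 by -0.01, and all 6 regulatory T cell markers lay within 1.5-fold. Bach2 itself was not analysed here, since no named probe was its own, and the deletion was not checked. Both samples are labelled male, and the Bach2 KO array went against its label. Xist, transcribed in female cells, was at least 7.27-fold higher on the Bach2 KO array and was not detected on the WT array. The Y-linked genes Kdm5d and Eif2s3y were detected on the WT array. They were 6.37-fold and 3.60-fold lower on the Bach2 KO array and still detected there. The arrays thus differed in labelled age and in these sex-linked genes as well as in genotype. With 1 array each, genotype cannot be told apart from age or from sex for any difference given here. In sorted bulk samples such as these, a change in the number of cells of a type and a change in RNA per cell cannot be told apart. With 1 array per genotype, no result below can be given without either array. Scatter between probes of 1 gene was the only technical yardstick, and its SD was 0.23 on the log2 scale over 1734 genes with several probes. Split into 3 classes of brightness, this SD was 0.28 for dim, 0.21 for middle and 0.16 for bright genes, and it does not cover differences between animals. Every log2 difference is Bach2 KO minus WT after normexp background correction and quantile normalization.

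The genes of the subunits were close to level, with Rel somewhat higher and Rela somewhat lower in Bach2 KO cells. Rela encodes p65, the main activating subunit of the classical branch. Its probe had a deposited intensity of 3993 on the Bach2 KO array and 4489 on the WT array, a log2 difference of -0.21 (1.16-fold lower). Rel encodes c-Rel, the activating subunit of lymphocytes. Its intensity was 213.4 on the Bach2 KO array and 153.1 on the WT array, a log2 difference of 0.41 (1.33-fold higher). The Rel probe is in the dim class, and its difference was 1.45 SDs of the probe scatter there, while that of Rela was -1.34 SDs in the bright class. Relb encodes RelB, the partner of p52 in the alternative branch, and had an intensity of 621.3 on the Bach2 KO array and 657.6 on the WT array (log2 difference -0.13). Nfkb2 encodes p100, the precursor of p52 and itself an inhibitor. It had 714.8 on the Bach2 KO array and 679.4 on the WT array, a log2 difference of 0.02, the smallest of the 9. For both genes of the alternative branch the difference was thus below 1 SD of probe scatter.

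**Figure D2:**
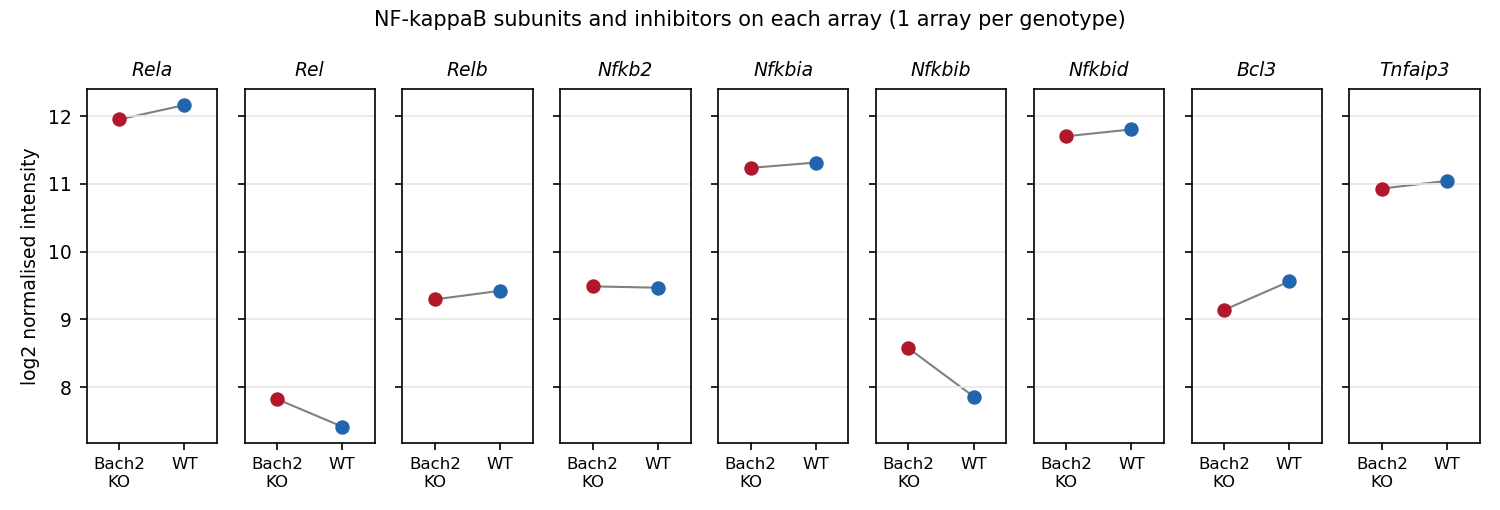
Normalised log2 intensity of the 9 measured members, 1 panel per gene, with the Bach2 KO array at the left (red) and the WT array at the right (blue), 1 array per genotype and so no error bars. Levels are comparable within a panel and not between panels, since each probe has its own response. Nfkbib and Rel are higher on the Bach2 KO array, and Bcl3 and Rela are the members that are lowest there relative to WT.

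Among the inhibitors, Nfkbib was the highest in Bach2 KO cells relative to WT and Bcl3 the lowest. Nfkbia encodes IkappaB-alpha, the inhibitor that is degraded fastest and made again after NF-kappaB activation. Its intensity was 2418 on the Bach2 KO array and 2490 on the WT array, a log2 difference of -0.08. Nfkbib encodes IkappaB-beta, a cytoplasmic inhibitor of dimers that hold p65 or c-Rel and one that responds more slowly. It had an intensity of 370.2 on the Bach2 KO array and 212.8 on the WT array, a log2 difference of 0.71 (1.64-fold higher). It was the only member past 1.5-fold, and 7.38% of all genes compared had a higher difference. The difference was 2.55 SDs of the probe scatter in the dim class, to which this probe belongs, and it was 0.55, under 1.5-fold, on the authors' series matrix values. IkappaB-beta was represented by 1 probe, so no second probe can be set beside it.

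The nuclear members of the inhibitor family and A20 were within 1.5-fold. Nfkbid encodes IkappaBNS, a nuclear IkappaB protein known to support Foxp3 induction in mouse T cells. Its intensity was 3382 on the Bach2 KO array and 3481 on the WT array, a log2 difference of -0.10. Bcl3 encodes a nuclear IkappaB protein that binds p50 and p52 homodimers. It had 551.4 on the Bach2 KO array and 723.2 on the WT array, a log2 difference of -0.42 (1.34-fold lower), the most negative of the 9. The difference was -2.01 SDs of the probe scatter in the middle class, and 14.3% of all genes compared had a lower difference. Tnfaip3 encodes A20, the ubiquitin-editing enzyme that ends NF-kappaB signalling and is itself induced by it. It had 1964 on the Bach2 KO array and 2062 on the WT array, a log2 difference of -0.11, well within probe scatter.

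**Figure D3:**
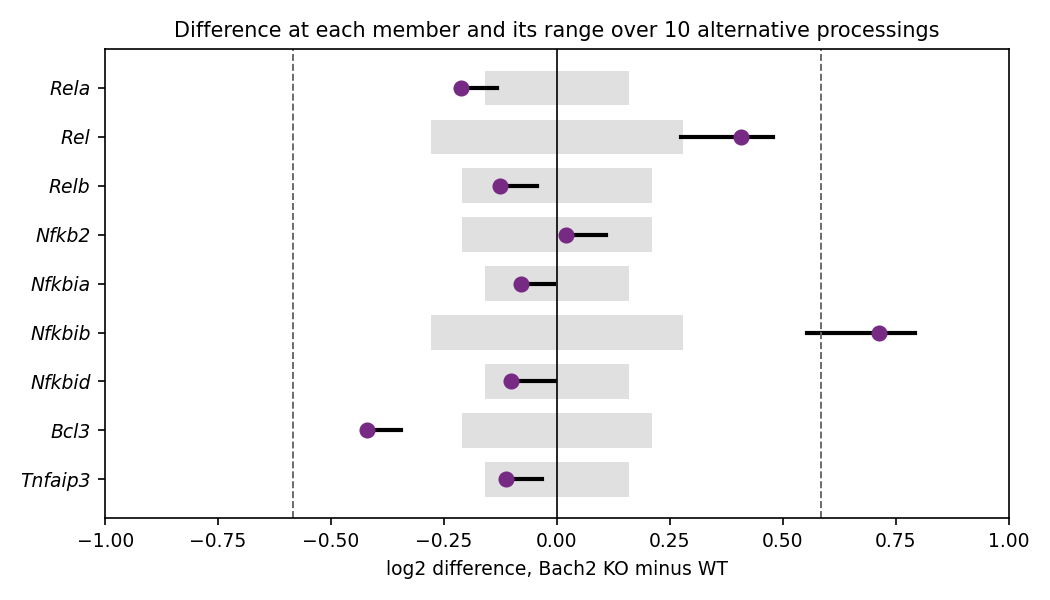
Log2 difference, Bach2 KO minus WT, at each measured member (purple point), with the range over 10 alternative processings (black line). Grey bars span 1 SD of probe scatter on each side of 0 for genes of like brightness, and dashed lines mark 1.5-fold. Nfkbib lies beyond the upper line and the other 8 members lie between the lines.

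Taken over the 9 genes, 1 (Nfkbib) was at least 1.5-fold higher in Bach2 KO cells, where 8.15% of the 7611 genes compared were, and 0 were at least 1.5-fold lower, where 6.77% were. None reached 2-fold in either direction, against 3.27% of all genes higher and 1.55% lower. Of all genes past 1.5-fold, 54.6% were higher in Bach2 KO cells, against 66.6% with median scaling of the arrays and 65.3% on the series matrix values. A count of 1 of 9 and 0 of 9 is near this background and is no result about the members. The median difference of the members was -0.10, beside -0.03 for all genes. With median scaling it was -0.0055, beside 0.05 for all genes, and on the series matrix values -0.05, beside -0.0090. The SD of the difference was 0.34 over members and 0.52 over all genes. All genes here include those detected on 1 array only and were not matched to the members for brightness. Of the 9 members 6 lay between the quartiles of all genes, at -0.26 and 0.22, a range that holds the middle of all genes by definition. The 3 outside that range were Nfkbib, Rel and Bcl3, the first 2 above it. Of the 4 subunit genes 2 were above 0 and 2 below, and of the 5 inhibitor genes, A20 included, 1 was above 0 and 4 were below. Of the 9 differences 5 were smaller than 1 SD of probe scatter at their brightness.

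**Figure D4:**
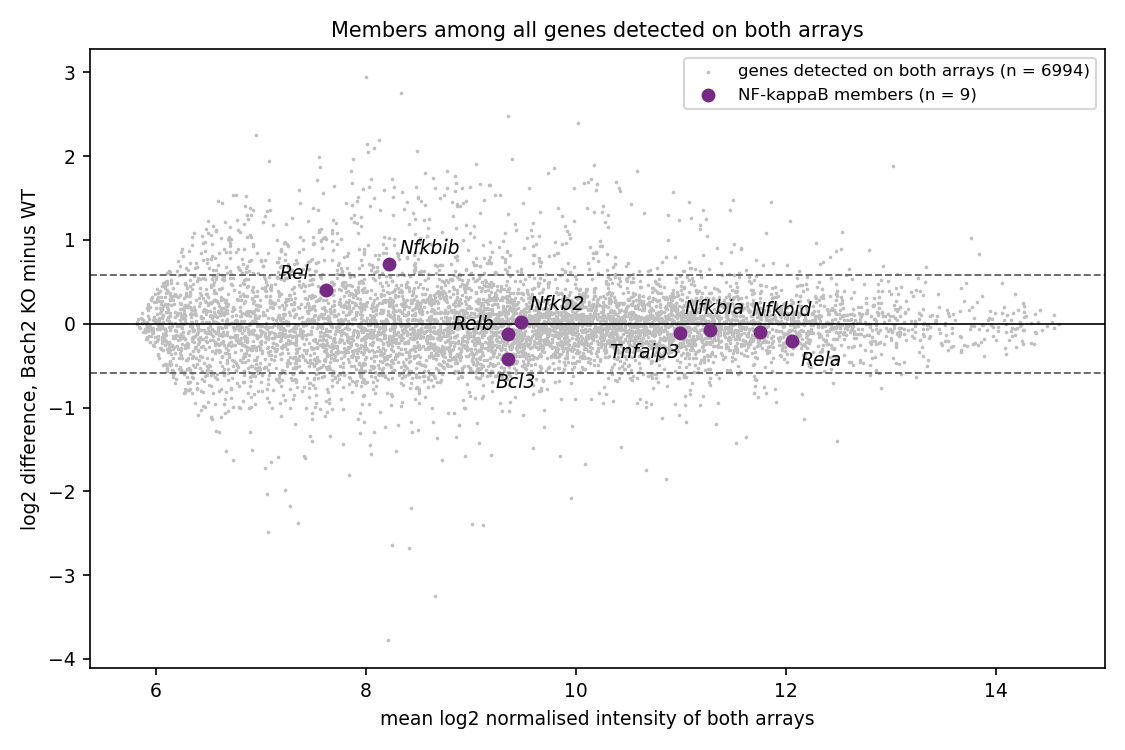
Log2 difference, Bach2 KO minus WT, against the mean log2 normalised intensity of both arrays for the 6994 genes detected on both arrays (grey) and the 9 measured members (purple). Dashed lines mark 1.5-fold. Rel and Nfkbib, the higher members, are both in the dim class.

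The presence of a kappaB match in the promoter was found in members on both sides of 0. The 6 genes with a match ranged from -0.42 for Bcl3 to 0.41 for Rel, and both members without a match, Rela at -0.21 and Nfkbib at 0.71, lay on opposite sides of 0. Nfkbia and Tnfaip3, the feedback inhibitors whose promoters carry the printed matches, differed by -0.08 and -0.11.

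Of the remaining inhibitors and the ubiquitin-editing partners of A20, counts past 1.5-fold were near those of all genes. Of 23 listed genes 18 were detected, 1 was at least 1.5-fold higher in Bach2 KO cells and 1 at least 1.5-fold lower (5.56% each way, beside 8.15% and 6.77% of all genes). The median difference was -0.10, but it was 0.0017 with median scaling, where 9 genes were above 0 and 9 below, and -0.04 on the series matrix values. Nfkbie, which encodes IkappaB-epsilon, differed by -0.15, and Nfkbiz, which encodes the nuclear IkappaB-zeta, by 0.05. The higher gene was Rnf125, a ubiquitin ligase, with an intensity of 563.4 on the Bach2 KO array and 329.4 on the WT array (1.63-fold higher), and its second probe differed by 0.48. The lower gene was Tnip2, an A20-binding protein, with 107.5 on the Bach2 KO array and 165.5 on the WT array (log2 difference -0.59), just past the threshold and short of it under 5 of 10 alternatives.

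Genes of the activating kinases and adaptors lay slightly below 0 as a group. All 27 of the 34 listed genes that had a probe were detected, none was at least 1.5-fold higher in Bach2 KO cells, beside 8.15% of all genes, and 1 (3.70%) was at least 1.5-fold lower, beside 6.77%. The median difference was -0.21, and 23 of the 27 were below 0, where 53.2% of all genes were. With median scaling of the arrays 19 of the 27 were below 0 and the median was -0.14. This list too was chosen with earlier results of these data known. The lower gene was Traf5, an adaptor of TNF-family receptors, with 114.6 on the Bach2 KO array and 174.6 on the WT array (1.51-fold lower), which was also short of 1.5-fold under 5 of 10 alternatives. Map3k14, which encodes NIK, the kinase of the alternative branch, had 518.0 on the Bach2 KO array and 733.7 on the WT array, a log2 difference of -0.53 (1.44-fold lower). The IkappaB kinase genes Ikbkb and Ikbkg differed by -0.27 and -0.26, with the second Ikbkg probe at -0.05, and Chuk had no probe in the annotation used here.

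Among receptors and ligands that feed the pathway, genes past 1.5-fold lay in both directions. Of 36 listed genes 22 were detected, 5 were at least 1.5-fold higher in Bach2 KO cells (22.7%, beside 8.15% of all genes) and 2 at least 1.5-fold lower (9.09%, beside 6.77%, which is near the background). No test of the list was made, and it was chosen with earlier results of these data known. The median difference was 0.28, and it was 0.09 over the 34 genes with a probe when dim probes were kept. Il18r1, the binding chain of the interleukin 18 receptor, had an intensity of 6623 on the Bach2 KO array and 2692 on the WT array (2.33-fold higher). Its signalling partner Il18rap was not detected on the WT array and was at least 2.18-fold higher on the Bach2 KO array. Cd40, a receptor best known from B cells and other antigen-presenting cells, was likewise detected on the Bach2 KO array alone (at least 2.12-fold higher). Of 4 Cd40 probes only 1 was detected, with a dim intensity of 102.9 on the Bach2 KO array. Tnfsf11, which encodes RANKL, was 1.79-fold higher and Tlr2 1.51-fold higher, and Tlr2 was short of 1.5-fold under 3 of 10 alternatives. The lower genes were Toll-like receptors, Tlr7 with 219.7 on the Bach2 KO array and 540.5 on the WT array (2.41-fold lower) and Tlr1 with 1071 on the Bach2 KO array and 1658 on the WT array (1.60-fold lower). Only 2 genes were at least 1.5-fold higher on the series matrix values, where 4.98% of all genes were. Among the 18 detected on both arrays 3 were, beside 7.81% of all genes so detected.

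Among textbook target genes of NF-kappaB, 11 of 34 detected were at least 1.5-fold higher in Bach2 KO cells and 1 was at least 1.5-fold lower, with a median difference of 0.26. The shares of 32.4% higher and 2.94% lower stand beside 8.15% and 6.77% of all genes, and no test of the list was made. The list was chosen with earlier results of these data known, so its shares cannot be separated from that choice. Among targets detected on both arrays, the chemokine genes Ccl4 and Ccl5 had the largest differences. Ccl4 had an intensity of 1564 on the Bach2 KO array and 257.7 on the WT array (5.57-fold higher), with a second probe at 2.11 on the log2 scale. Ccl5 had 3409 on the Bach2 KO array and 1088 on the WT array (2.97-fold higher). Ebi3, a subunit of interleukins 27 and 35, had 1287 on the Bach2 KO array and 489.1 on the WT array (2.52-fold higher). The cytokine genes Cxcl10, Csf2 and Ccl3 were not detected on the WT array, and were at least 2.45-fold, 1.98-fold and 1.76-fold higher on the Bach2 KO array. Vcam1, an adhesion molecule, was 1.71-fold higher and Plek, pleckstrin, 1.70-fold. The other 3 were Ier3, Pim1 and Irf4, with log2 differences of 0.76, 0.71 and 0.63. They were at least 1.5-fold higher under 7, 8 and 10 of 10 alternatives, and the second Pim1 probe differed by 0.46, under 1.5-fold. The lower gene was Ccnd1, cyclin D1, not detected on the Bach2 KO array and at least 1.51-fold lower there. Its other detected probe differed by -0.32, and the call held under 3 of the 9 alternatives that kept this gene. The feedback targets among the members, Nfkbia and Tnfaip3, stood at -0.08 and -0.11 on the same arrays, and Icam1 at 0.12 and Sod2 at 0.15, both chosen after their values were seen, were also within 1.5-fold. Of the list 6 were at least 1.5-fold higher on the series matrix values, where 4.98% of all genes were. Of the 26 detected targets with a promoter window 8 held a kappaB match, beside 5.14% of all genes with a window. Of these 8 targets 3 (Ier3, Cxcl10 and Ebi3) were among the higher genes, near the 11 of 34 of the list. A link between match and difference was not tested.

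**Figure D5:**
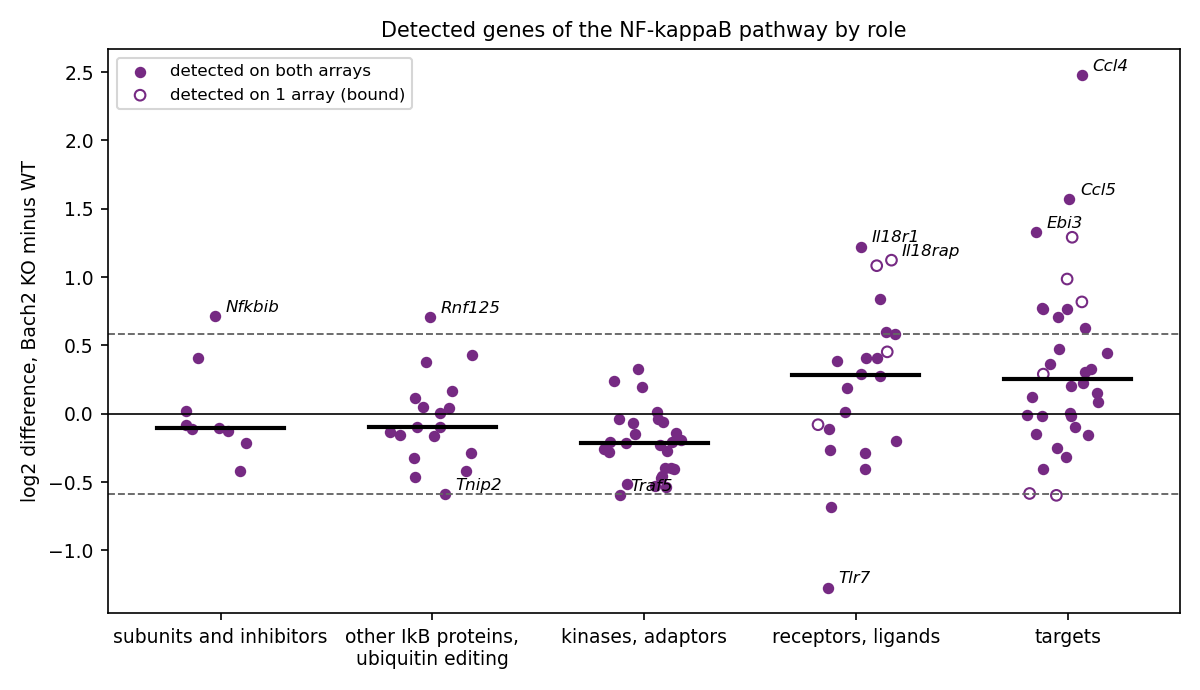
Log2 difference, Bach2 KO minus WT, of every detected gene in 5 lists of the NF-kappaB pathway, with filled points for genes detected on both arrays, open points for the bound of genes detected on 1 array, and a bar at the median. Dashed lines mark 1.5-fold. Nfkbib and Rnf125 are the only points past the upper line among the members, the A20 partners and the kinases, and the other points past it are receptors, ligands and targets.

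Alongside these receptors and targets, genes listed as markers of other cell types also differed. Whether the sorted cells or other cells expressed them was not tested. Sums given here are of deposited intensity over all probes of a list's genes. Of the 6 detected mast cell and basophil markers all 6 were at least 1.5-fold higher in Bach2 KO cells, led by Gata2, and the 8 listed genes summed to 1745 on the Bach2 KO array and 575.4 on the WT array. Of the 5 detected NK cell markers 4 were higher, led by Nkg7, with sums of 2879 on the Bach2 KO array and 1069 on the WT array. Eomes was within 1.5-fold (log2 difference 0.37), and Ncr1 and Itga2 were not detected on either array. Of 3 detected B cell markers Cd79b and Cd22 were higher, while Cd79a was detected on the WT array alone (log2 difference -0.12). Ms4a1, Pax5, Blk, Fcer2a, Cr2 and Ebf1 were not detected on either. B cell markers summed to 2117 on the Bach2 KO array and 932.7 on the WT array. The brightest Cd79b probe gave 1433 and 611.8 of these. The myeloid markers summed to 1390 on the Bach2 KO array and 1011 on the WT array, with 2 of 5 detected markers higher and Cd14 and Itgam not detected. Neutrophil markers went the other way, with all 6 detected markers lower, among them S100a8 and S100a9, and sums of 655.7 on the Bach2 KO array and 3124 on the WT array. Red cell markers summed to 201.6 on the Bach2 KO array and 587.0 on the WT array, with all 3 detected markers lower. Of 3 detected plasma cell markers 1, Jchain, was higher, and Sdc1 and Tnfrsf17 were not detected on either array. The sums were 6335 on the Bach2 KO array and 4875 on the WT array. Of these Xbp1, which was within 1.5-fold, gave 5956 and 4592. Of the CD8 T cell markers Cd8a was not detected and Cd8b1 differed by 0.20, and all 6 detected T cell markers were within 1.5-fold. Their part in the differences of the receptor and target genes, several of which such cells also express, was not tested.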

How the data were processed

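The authors deposited a table of non-normalized intensity values, 1 per probe and array, with a detection p-value for each, per the file headers. These deposited intensity values were already background-subtracted (29.5% below 0 on the Bach2 KO array and 30.4% on the WT array). The deposited series matrix was a straight-line function of the same values (residuals of at most 0.0091) and served as an alternative. Its slope and intercept per array were 0.779 and 83.3 for Bach2 KO and 0.782 and 86.6 for WT, its column medians were 95.6 and 99.7, and it was not centred. No source used here names the scanner software or its background method.

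Normexp correction over all probes took its noise level from the detection p-values and used an offset of 16, after which arrays were quantile normalized and log2 transformed (neqc, limma 3.58.1, R 4.3.3). Of 25697 probes 23978 had 1 gene symbol, none several, and 1719 were unnamed. Of several detected probes of a gene, the one with the highest mean over both arrays was used. For a gene undetected on 1 array only a lower bound was counted, against the higher of its own value and the dimmest detected probe there (log2 5.81 for Bach2 KO and 5.80 for WT). Quantile normalization hides a general shift of all genes. The offset shrinks differences of dim probes, and so does the larger constant (the intercept) in the series matrix values. With 1 array per genotype there were no tests, and the number of arrays limits the precision. The steps were tested on simulated data.

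Members, lists and markers were chosen with earlier results of these data known. Named genes were all members, up to 8 genes per list and direction past 1.5-fold, IkappaB and kinase genes set by name, the leading markers, and further targets chosen after their values were seen. Promoter sequences are from RefSeq (GRCm38.p6).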

Additional observations from a re-analysis of the deposited data

How the results depend on the processing

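All 9 member differences moved by less than the probe scatter of 0.23 under each of 10 alternatives (no normexp step, median scaling, cyclic loess, offsets of 1 and 50, a detection p-value under 0.05, no filter, genes detected on both arrays, mean of probes, and the series matrix), and each kept its sign. The one call among members, Nfkbib, held under 9 of 10. On the series matrix values 0 members were called higher, beside 4.98% of all genes. A detection p-value under 0.05, no filter, genes detected on both arrays and mean of probes could not alter any member difference. Each measured member has 1 probe, and it was detected on both arrays. Closest to 0 were Nfkbia at -0.0055 and Nfkbid at -0.0049, both under median scaling.

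The single lower calls among A20 partners and among kinases each became 0 under 5 of 10 alternatives. These were no normexp step, median scaling, cyclic loess, an offset of 50 and the series matrix. Of the alternatives that kept these calls, only the offset of 1 altered the values of Tnip2 and Traf5. With the mean of probes 2 A20 partners were higher. Higher receptors and ligands numbered 8 of 34 with no filter, 3 of 18 among genes detected on both arrays and 2 of 22 on the series matrix. Of all genes 5.25%, 7.81% and 4.98% were higher under these settings. Higher targets numbered 6 of 34 on the series matrix. Lower targets numbered 0 with no normexp step, median scaling, cyclic loess, an offset of 50, genes detected on both arrays, mean of probes and the series matrix, and 2 with an offset of 1, a detection p-value under 0.05 and no filter. The cause was not tested. Over all genes, 620 were at least 1.5-fold higher and 515 lower, against 379 and 201 on the series matrix values. The lower count was 343 with an offset of 50 and 798 with no filter.

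No paired analysis was possible because each genotype has 1 array. For the same reason no array was left out.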

Other observations

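Differences were also set against motifs in promoter windows over all genes. Of the compared genes with a window, 405 held a match to the kappaB consensus. Their median difference was -0.04, beside -0.03 for the 5886 genes without one. At least 1.5-fold higher in Bach2 KO cells were 9.38% of the genes with a match and 7.76% of those without, and at least 1.5-fold lower were 8.64% and 6.51%. For TGANTCA the 370 genes with a match had a median of -0.02, with 9.19% higher and 5.68% lower, beside 7.79% and 6.70% of genes without. No test of these shares was made.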
